A study of Mus musculus with 2 samples.

Results

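Open chromatin was examined at 9 genes of the hypoxia response, out of 21896 protein-coding mouse genes, in tdTomato-positive cells of the Wnt4 lineage that were sorted from kidneys at E18.5, late in gestation. The genes were Hif1a, Epas1, Vhl, Egln1, Egln3, Bnip3, Ndrg1, Slc2a1 and Ankrd37. ATAC-seq, in which a transposase cuts accessible DNA, gave 1 peak list per genotype. The control list is labelled WT control. The other comes from kidneys of genotype Brg1cKO/cKO (cKO below), a conditional loss of Brg1, whose product is the motor subunit of BAF, a complex that moves nucleosomes with energy from ATP. Each reaction used 50000 sorted cells. The control's cell type label reads only control, so its place in the Wnt4 lineage rests on the titles and the design text. The labels used here do not state the Cre driver, the strain, or how many animals were pooled. A peak was assigned to a gene when its summit lay inside the gene, or when that gene's end was the nearest among protein-coding genes and within 100 kb. This gave 51 of 77529 control peaks and 40 of 61210 cKO peaks. There was 1 library per genotype, so no test between genotypes was made, and every interval is an exact binomial 95% interval that covers counting error only.

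Cells sense low oxygen through the HIF transcription factors. With oxygen present, the EGLN prolyl hydroxylases modify the alpha subunits HIF1A and EPAS1 (HIF-2 alpha), and the ubiquitin ligase that contains VHL then marks them for destruction. When oxygen is scarce the alpha subunits persist, pair with ARNT and bind the core sequence ACGTG or GCGTG of hypoxia response elements, raising glucose uptake, glycolysis and other adaptive genes. In the kidney this pathway is best known for erythropoietin production by interstitial cells and for the renal tumours that follow loss of VHL.

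The promoters of these genes are shown first, because open chromatin at the gene start was common to both libraries and because the core sequence can be read there. RefSeq promoter windows of 300 bp (GRCm38.p6, the assembly of mm10), from 250 bp before to 50 bp after the gene start, were given for 7 of the 9 genes: Hif1a, Vhl, Egln1, Egln3, Bnip3, Slc2a1 and Ankrd37. All 300 bases of each of these 7 windows lay inside a peak in both libraries. The 250 bases before the start are printed 5′ to 3′ on the gene's strand for 3 genes that are well-known HIF targets and hold several core sequences, for Egln3 with only 1, and for Vhl with none. Capitals mark ACGTG and GCGTG on either strand (CACGT and CACGC when they lie on the other strand), and neighbouring matches that overlap run together.
Bnip3, chr7:138909507-138909756, minus strand: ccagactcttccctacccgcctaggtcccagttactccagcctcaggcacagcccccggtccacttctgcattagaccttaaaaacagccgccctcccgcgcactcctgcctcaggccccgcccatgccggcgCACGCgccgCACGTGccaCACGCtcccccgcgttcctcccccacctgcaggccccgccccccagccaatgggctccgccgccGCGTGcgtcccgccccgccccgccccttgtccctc
Ankrd37, chr8:45999851-46000100, minus strand: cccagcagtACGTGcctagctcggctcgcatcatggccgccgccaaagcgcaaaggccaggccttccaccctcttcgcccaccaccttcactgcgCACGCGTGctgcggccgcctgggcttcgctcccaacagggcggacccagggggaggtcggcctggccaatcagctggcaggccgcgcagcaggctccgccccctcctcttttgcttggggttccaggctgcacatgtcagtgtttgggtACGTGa
Slc2a1, chr4:119108495-119108744, plus strand: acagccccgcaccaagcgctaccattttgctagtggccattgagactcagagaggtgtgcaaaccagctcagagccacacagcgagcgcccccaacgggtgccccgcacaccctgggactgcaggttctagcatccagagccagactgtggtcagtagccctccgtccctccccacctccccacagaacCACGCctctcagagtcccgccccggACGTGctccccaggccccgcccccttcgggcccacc
Egln3, chr12:54203875-54204124, minus strand: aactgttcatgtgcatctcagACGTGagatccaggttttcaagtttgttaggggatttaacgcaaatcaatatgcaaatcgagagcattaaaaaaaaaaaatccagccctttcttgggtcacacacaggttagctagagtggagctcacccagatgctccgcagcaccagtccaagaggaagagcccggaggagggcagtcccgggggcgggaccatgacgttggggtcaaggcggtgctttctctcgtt
Vhl, chr6:113623744-113623993, plus strand: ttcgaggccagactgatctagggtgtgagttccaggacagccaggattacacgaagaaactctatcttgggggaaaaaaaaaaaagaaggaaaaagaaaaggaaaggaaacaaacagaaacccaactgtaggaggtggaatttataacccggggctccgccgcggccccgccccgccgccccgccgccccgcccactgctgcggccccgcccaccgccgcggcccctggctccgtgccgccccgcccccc

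The core sequence ACGTG was present on either strand in 6 of the 7 windows, all but that of Vhl, whereas 19.6% of 32851 promoter windows of the genome held it. Among the 16461 windows overlapped by a peak in both libraries the share was 25.1%. GCGTG was present in 4 of the 7, at Egln1, Bnip3, Slc2a1 and Ankrd37, against 32.4% of all windows and 50.4% of those open in both libraries. Either form of the core was present in 6 of the 7 windows, against 43.8% of all windows and 61.7% of those open in both. The palindrome CACGTG, which holds ACGTG on both strands, occurred at Hif1a and Bnip3. It was present in 7.15% of all windows and 9.74% of those open in both. Base composition differs between these sets: the median GC content was 69.0% in the 7 windows, from 54.7% at Egln3 to 86.0% at Egln1, against 52.7% in all windows and 61.3% in those open in both. A match is a stretch of letters and not a bound site, and the lack of one at Vhl says only that these letters are not in this window.

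Bnip3, which encodes a mitochondrial protein that promotes mitophagy, had the most matches, 5, lying between 35 and 117 bp before the start. In Ankrd37, a HIF target that encodes an ankyrin repeat protein, 4 matches began 6, 152, 155 and 241 bp before the start. Slc2a1, the gene of the glucose transporter GLUT1, had matches at 36 and 61 bp. In Egln3 the single ACGTG began 229 bp before the start. Summits lay close together in the libraries. The control summit lay 41 bp before the start of Egln3 and the cKO summit 35 bp before it. At Ankrd37 the summits were 146 and 140 bp before the start, close to the GCGTG pair. The start used there lies inside the annotated gene, which reaches chr8:46000414, so the printed bases lie inside it too. At Hif1a, Vhl and Egln1 the 2 libraries shared the summit to the base, 48 bp before, 24 bp after and 214 bp before the start.

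**Figure D1:**
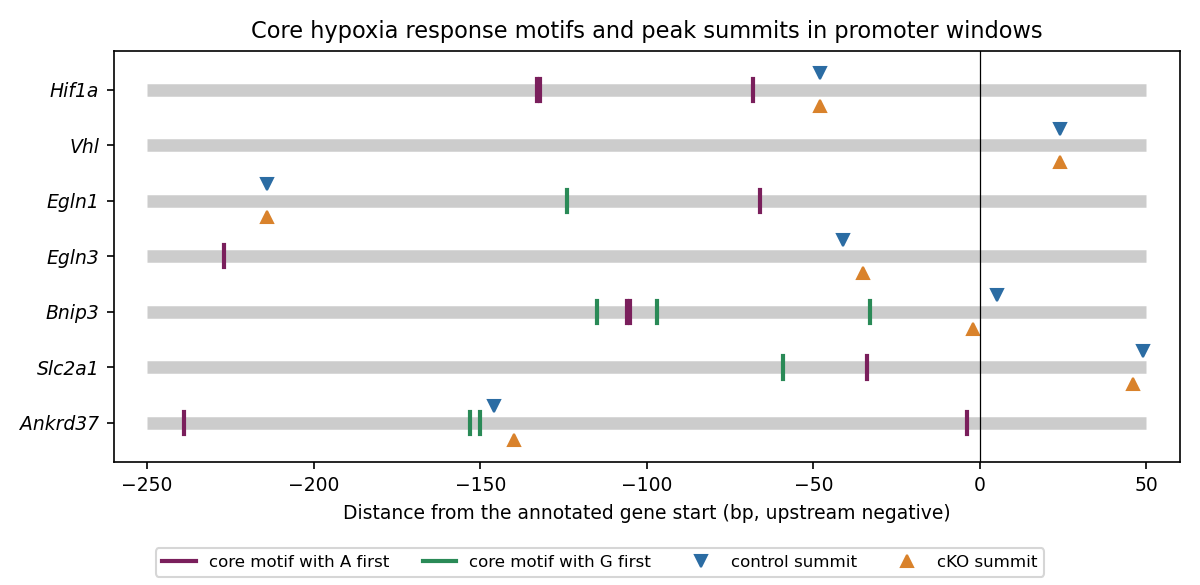
Promoter windows of the 7 genes with a RefSeq window, drawn by distance from the annotated gene start in bp. Ticks mark the core hypoxia response sequence on either strand, purple with A first and green with G first, and triangles mark the summits of the control peak (blue, above) and the cKO peak (orange, below). Vhl holds no core sequence, and the summits of the 2 libraries lie within 7 bp of each other in each window.

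The 7 genes with a promoter window all had it overlapped by a peak in both libraries. Across the genome, 64.6% of 17491 protein-coding genes with a promoter window had that window overlapped by a peak in both libraries. Epas1 and Ndrg1 have no promoter window here, and their start was taken as the gene end that carries the strongest peak. That choice favours a strong peak at the start, so these 2 genes do not count in the comparison with 64.6%. By the wider measure of a peak within 1000 bp of either gene end, 8 of the 9 genes had one in both, against 65.9% of protein-coding genes. The exception was Hif1a, whose promoter window and peak lie inside the annotated span, 6.50 kb from its outermost end. The start peaks were ranked within their own list by the caller's p, with percentile 100 the strongest. They stood between percentile 88.3 and 99.0 of the control list and between percentile 84.0 and 99.4 of the cKO list. High ranks were common near gene ends across the genome. Over all peaks with a summit within 1 kb of a gene end, the median percentile reached 88.7 for control peaks and 86.5 for cKO peaks. At Epas1 and Ndrg1 the start was defined by the strongest peak, and Vhl and Ankrd37 had a single peak. Among the other 5 genes the start peak was the strongest in each library at 4, Egln3 being the exception.

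Widths at the start were close between the libraries, and none of the 9 start peaks passed a 1.5-fold change. Such changes were rare among strong peaks in general. All 9 lay in the strongest of 5 equal classes of control peaks. Of all 14701 pairs matched one to one in that class, 331 fell below 2/3 of the control width and 72 passed 3/2. The Hif1a peak (chr12:73906921-73909483 in the control) was 2563 bp wide in the control and 2098 bp in the cKO, a ratio of 0.82 and the lowest of the 9. For Epas1 the widths were 3508 and 3487 bp, for Ndrg1 3598 and 3275 bp, for Egln1 3131 and 2790 bp, and for Egln3 2428 and 2238 bp. Those 5 peaks were narrower in the cKO. The other 4 were slightly wider there, with 1984 and 2149 bp at Vhl, 2049 and 2155 bp at Bnip3, 1957 and 2005 bp at Slc2a1 and 1680 and 1684 bp at Ankrd37. The median ratio of cKO to control width was 0.99, against 0.99 over all pairs of the strongest class. The summits were displaced by a median of 3 bp and at most 15 bp, against a median of 4 bp over that class.

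The peaks that differed between the libraries lay away from the starts. Of the 51 control peaks of these genes, 37 overlapped a cKO peak by at least 1 bp (72.5%, 58.3 to 84.1%) and 14 did not. Over the whole control list 25.9% of peaks had no cKO counterpart, so the share at these genes lay near the background. The share found was 76.8% when the average over all control peaks was taken at the strength of these 51. In the other direction, 39 of the 40 cKO peaks overlapped a control peak (97.5%, 86.8 to 99.9%), where 5.92% of all cKO peaks had no control counterpart. Because each list summarises a cell mixture, fewer cells with an open site and less opening per cell cannot be told apart. The depth per library is unknown, and an uncalled peak was not shown to be closed chromatin. When only the 61210 control peaks with the best p were kept, as many as the cKO list holds, 34 of 40 control peaks were found (85.0%, against 83.5% of all) and 36 of 40 cKO peaks (90.0%, against 84.2% of all).

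The 14 unmatched control peaks were spread over 6 genes: 4 at Egln3, 4 at Slc2a1, 3 at Epas1 and 1 each at Hif1a, Egln1 and Ndrg1. Bnip3, Vhl and Ankrd37 had none. No unmatched peak lay at a gene start or within 1000 bp of an end of its gene; among peaks farther away 27 of 41 were found (65.9%, 49.4 to 79.9%). By distance of the summit from the nearest gene end, 8 of 8 control peaks within 1 kb were found, 15 of 18 between 1 and 10 kb, 14 of 21 between 10 and 50 kb, and 0 of 4 beyond 50 kb. The same shares over all control peaks were 94.6%, 75%, 67.7% and 66.3%. The 4 farthest peaks all belong to Egln3 and lie within a span of 27.2 kb. Their interval reaches up to 60.2%, but it treats these neighbours as independent, so no excess of far losses can be read from it. Unmatched peaks were mostly weak, 13 of 14 standing below the median strength of the control list. The same held over the whole list. In the weakest and next weakest of 5 equal classes stood 9531 and 6772 of all 20043 unmatched control peaks, and 8 and 3 of the 14. In 5 equal classes of the control list from weakest to strongest, 2 of 10, 6 of 9, 4 of 6, 12 of 12 and 13 of 14 peaks of the 9 genes were found, where all control peaks gave 38.5%, 56.3%, 81.1%, 94.8% and 99.9%. The unmatched peaks were also narrower: their median width was 769 bp against 1282 bp for the 37 found. The 37 include all 10 peaks at a gene start or end, which are wide. The parts of position and of strength in this difference were not tested.

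**Figure D2:**
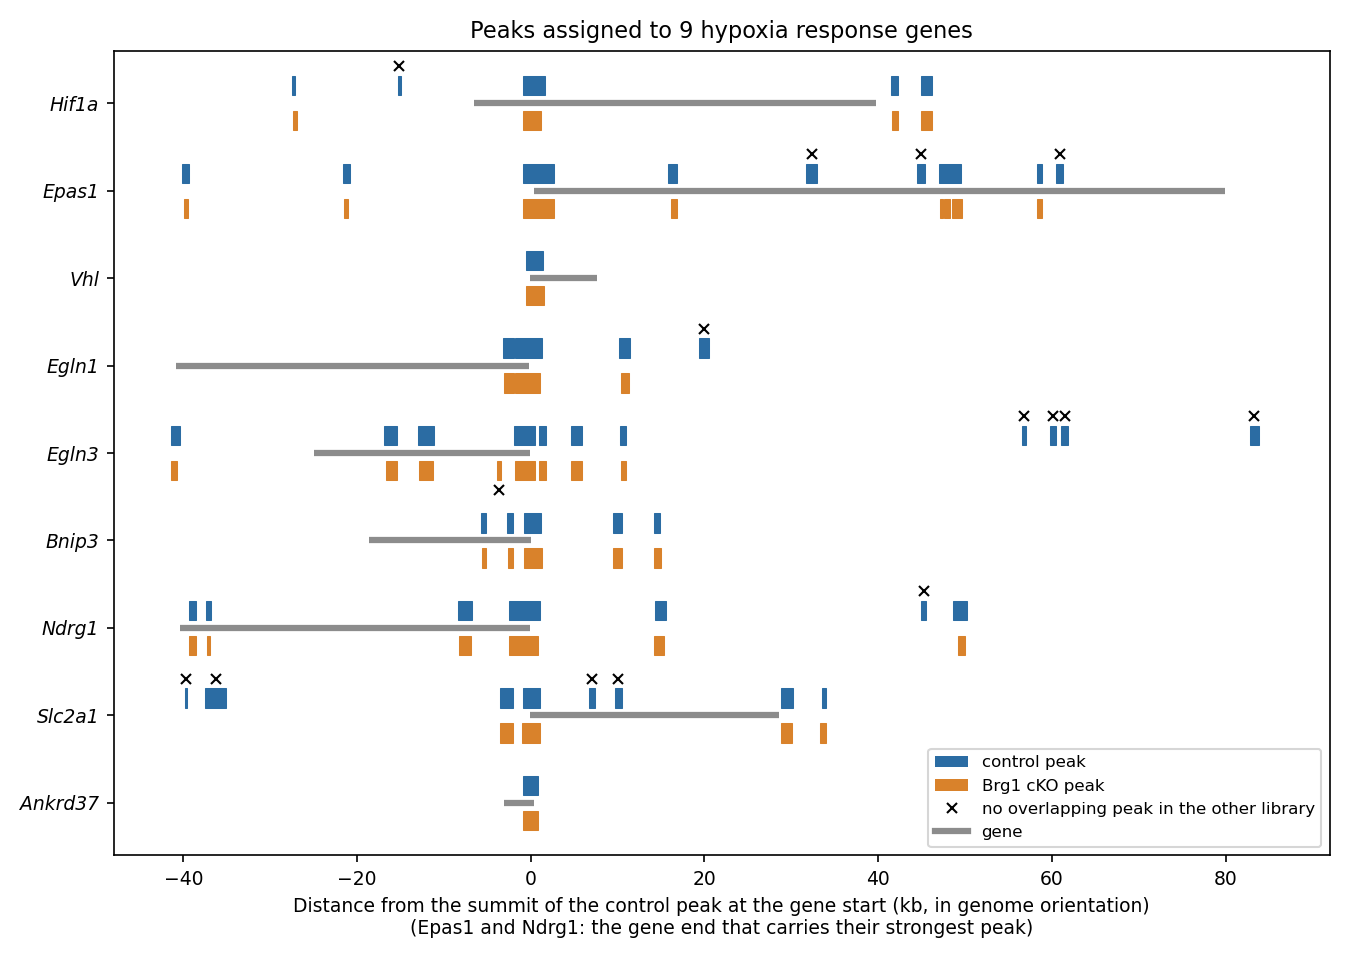
Peaks of both libraries at the 9 genes, drawn to scale by distance in kb from the summit of the control peak at the gene start (for Epas1 and Ndrg1, the gene end with their strongest peak), in genome orientation. Blue boxes are control peaks, orange boxes cKO peaks, grey lines the genes, and crosses mark the 14 control peaks and 1 cKO peak with no overlap in the other library. The peaks at distance 0 are present in both libraries in every gene, and the crosses lie away from them.

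Among the genes of the HIF subunits, Hif1a (mm10 chr12:73901324-73947554), which encodes the broadly expressed alpha subunit, had 5 control and 4 cKO peaks covering 5.35 and 4.46 kb. The only unmatched peak was 299 bp wide and 8.63 kb outside the gene, at percentile 15.0 of the control list. Both peaks beyond the 3′ end were found again, one at 865 bp in the control and 679 bp in the cKO, the other at 1261 and 1262 bp. The weak peak 20.7 kb outside the gene was also in both lists, at 358 and 416 bp. Hif1a thus kept 4 of 5 control peaks, and 80.6% of its control bases lay under a cKO peak.

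Epas1 (chr17:86753864-86833410), which encodes the HIF-2 alpha subunit prominent in endothelial and interstitial cells of the kidney, had 9 control peaks covering 12.1 kb and 8 cKO peaks covering 7.85 kb. The covered bases in the cKO were 0.65 of those in the control, the second lowest ratio of the 9 genes. All 3 unmatched control peaks lay inside the gene, at chr17:86785234-86786446, chr17:86798024-86798854 and chr17:86814015-86814792. They were weak, at percentiles 3.28, 5.29 and 27.8. Between them a control peak of 2525 bp was replaced by 3 separate cKO peaks of 368, 658 and 1177 bp. Such a break into 2 or more cKO peaks affected 1.29% of all control peaks, and among the 51 it occurred at Epas1 alone. Outside and early in the gene, 3 matched peaks were narrower in the cKO: 850 against 374 bp at 40.04 kb outside it, 799 against 525 bp at 21.6 kb outside it, and 986 against 681 bp at 16.2 kb inside it. The start peak by contrast differed by a ratio of only 0.99.

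Of the genes that restrain HIF, Vhl (chr6:113623994-113631634), the substrate receptor of the ubiquitin ligase, had a single peak in each library, at its start. Egln1 (chr8:124908587-124949254), which encodes the main oxygen-sensing hydroxylase PHD2, had 4 control peaks covering 6.83 kb and 3 cKO peaks covering 4.90 kb. Its unmatched peak, 1119 bp wide, lay 20.0 kb outside the gene and inside the noncoding gene Gm39281, at percentile 1.53. The next peak, 11.4 kb outside, was 1295 bp wide in the control and 953 bp in the cKO.

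Egln3 (chr12:54178981-54203874), which encodes the hydroxylase PHD3 and is itself induced by HIF, had the most peaks, 11 in the control covering 12.3 kb and 8 in the cKO covering 8.99 kb. The 7 control peaks within 16 kb of its ends were all found. Widths there were 1058 and 746 bp, 1483 and 1260 bp, 1756 and 1714 bp, 2428 and 2238 bp, 744 and 714 bp, 1265 and 1251 bp, and 674 and 530 bp in control and cKO, each narrower in the cKO. The 4 unmatched control peaks followed one another on the start side, 56.8, 60.1, 61.8 and 83.2 kb from the gene. They were the only control peaks in a span of 27.2 kb (chr12:54260495-54287712), and the cKO list had 0 peaks in it. No annotated gene overlaps them, and the next protein-coding gene by distance, Npas3, is 189 kb or more away, on the far side of Egln3.

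The farthest of these 4 peaks (chr12:54286679-54287712, 1034 bp) stood at percentile 82.7, in the strongest of the 5 classes, where 10 of 15506 had no cKO counterpart. It lay near the lower edge of that class, and in the next class down 802 of 15506 had none. The remaining unmatched control peaks of Egln3 were weaker, at percentiles 18.0, 1.63 and 48.4. Without Egln3, 30 of 40 control peaks of the remaining genes were found (75%). Egln3 also carried the only cKO peak without a control counterpart, 535 bp inside the gene and 3.57 kb from an end (chr12:54199980-54200514), at percentile 12.2 of the cKO list.

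**Figure D3:**
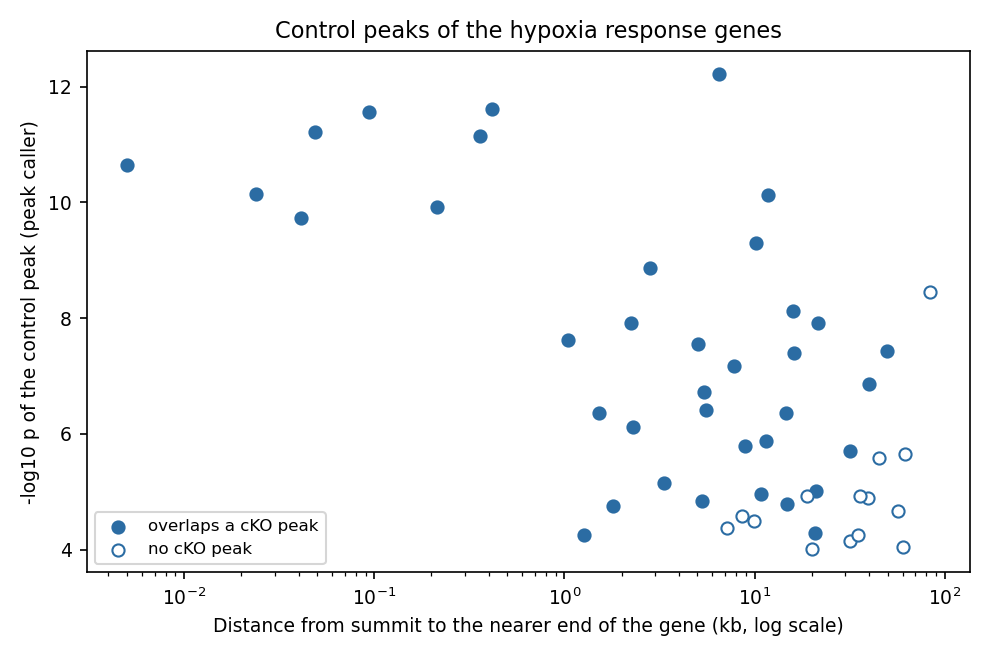
The 51 control peaks of the 9 genes, by distance of the summit to the nearer end of the gene in kb (log scale) and by the caller's -log10 p in the control list. Filled points overlap a cKO peak and open points do not; the open points lie low and to the right, apart from the Egln3 peak at 83.2 kb with a -log10 p of 8.45.

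Slc2a1 (chr4:119108745-119137330) had 8 control peaks and 4 cKO peaks, the largest difference in number among the 9 genes. They covered 9.27 and 5.33 kb, a ratio of 0.57 and the lowest of the 9. The 4 unmatched control peaks were 2 inside the gene, 680 and 759 bp wide, and 2 upstream, 197 bp wide at 39.6 kb and 2333 bp wide at 35.7 kb. Both upstream peaks have their summits in noncoding genes, Gm12866 and Gm35510. Such summits also occur in matched peaks, in Gm52706 at 2.82 kb upstream of Slc2a1, in Gm15283 near Hif1a and in Gm2895 near Ndrg1. All 4 stood between percentiles 8.70 and 28.1. The 4 matched peaks had nearly the same total width, 5300 bp in the control and 5328 bp in the cKO. They were the start peak, one 2.82 kb upstream at 1440 and 1479 bp, and a pair beyond the 3′ end at 1363 and 1171 bp and at 540 and 673 bp. In the more significant 50% of each list, all 4 control peaks of Slc2a1 were found.

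Bnip3 (chr7:138890836-138909506) gave a different picture, with 5 peaks in each library, all matched, and 5.14 kb covered in the control against 5.19 kb in the cKO. In the more significant 50% of each list 3 of 4 control peaks of Bnip3 were found. The other, 712 bp wide, stood at percentile 58.6, and its cKO partner at percentile 43.1 was removed by the cut. Away from the start, the peaks inside Bnip3 were 601 and 479 bp and 712 and 640 bp in control and cKO. Those on the start side were 1099 and 1126 bp and 682 and 790 bp. Ankrd37 (chr8:45996908-46000414) had only its start peak, which covered the 5′ part of this short gene with edges that differed by 4 bp at one side and not at all at the other.

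Ndrg1 (chr15:66929318-66969641), a HIF-induced gene involved in cell differentiation and stress, had 7 control peaks covering 10.2 kb and 6 cKO peaks covering 7.86 kb. The unmatched one, 616 bp wide and 45.3 kb outside the gene, stood at percentile 46.6. Its neighbour at 49.8 kb was matched but went from 1648 bp in the control to 796 bp in the cKO, a ratio of 0.48. Inside the gene the pairs were 848 and 771 bp, 504 and 442 bp, and 1650 and 1408 bp, and 14.7 kb outside it 1286 and 1165 bp. All 6 matched peaks of Ndrg1 were narrower in the cKO.

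**Figure D4:**
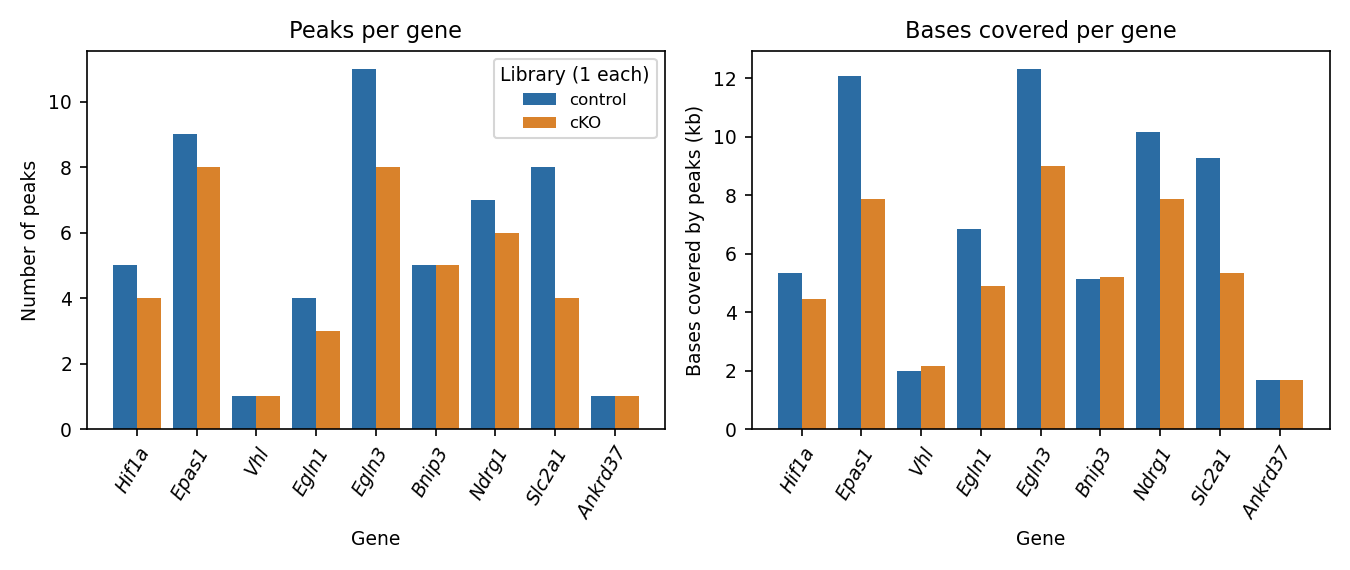
Number of peaks (left) and bases covered by peaks in kb (right) for each of the 9 genes, control in blue and cKO in orange, 1 library each and therefore without error bars. Epas1 and Slc2a1 differ most in covered bases, and Vhl, Bnip3 and Ankrd37 are nearly level.

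Summed over the 9 genes, peaks covered 64.8 kb in the control and 48.4 kb in the cKO, a ratio of 0.75, against 0.84 over all peaks of the 2 lists. Control peaks without a counterpart held 11733 bp, and matched peaks summed to 53061 bp in the control and 47866 bp in the cKO. The cKO-only peak added 535 bp. Covered bases were below 2/3 of the control at 2 of the 9 genes, Slc2a1 and Epas1, while 16.7% of 16703 protein-coding genes with a control peak met this mark. Among genes with at least 4 control peaks, a group formed after the values were seen and to which 7 of the 9 belong, 20.8% did. The median ratio was 0.77 over the 9 genes and 0.91 over all genes with a control peak. With at least 4 control peaks it was 0.73 over the 7 genes, the value of Egln3, and 0.82 over all such genes. None of the 9 exceeded 3/2, a mark passed by 1.95% of genes. With the 2 lists at equal length the summed ratio was 0.86, against 0.96 over all peaks.

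The 36 peaks matched one to one tended to be narrower in the cKO, 26 of them narrower and 10 wider, with a median ratio of 0.91. Over all 54820 such pairs the median ratio was 0.98, and 58.1% were narrower in the cKO. A width below 2/3 was seen in 3 of the 36, 2 outside Epas1 and 1 outside Ndrg1, and in 8.53% of all pairs, which is the background. None of the 36 was wider than 3/2, against 3.89% of all pairs. Away from gene starts and ends the median ratio was 0.90 over 26 pairs. In the strongest class of control peaks it was 0.99 over 13 pairs, equal to the 0.99 over all pairs of that class, and in the next class 0.86 over 12 pairs against 0.96. In the more significant 50% of each list the median over the members was 0.97.

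**Figure D5:**
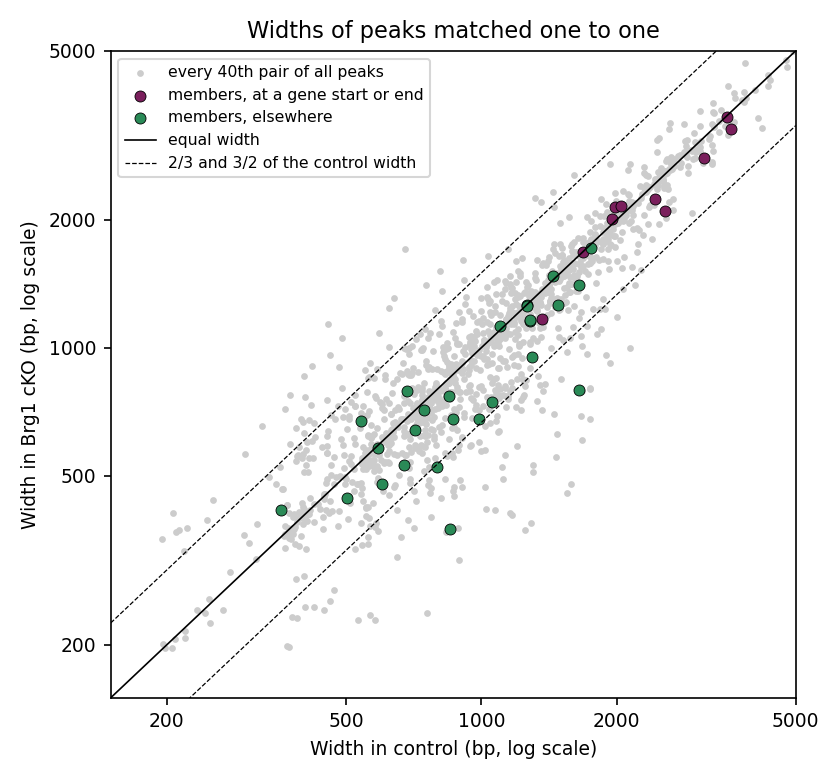
Width in bp of each peak matched one to one, control on the x axis and cKO on the y axis (both log scales). Purple points are pairs at a start or end of the 9 genes, green points their other pairs, grey points every 40th of all pairs, the solid line marks equal width and the dashed lines 2/3 and 3/2 of it; 3 green points fall below the lower dashed line.

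Other genes of the pathway were counted by the same rule in a list of 47. Together they had 252 control peaks, 181 of which overlapped a cKO peak (71.8%, 65.8 to 77.3%, against 74.1% of all control peaks), and 184 cKO peaks, 179 of which overlapped a control peak (97.3%, 93.8 to 99.1%, against 94.1% of all cKO peaks). HIF subunits, sensors and regulators kept 39 of 55, glycolysis genes 53 of 73 and other HIF targets 89 of 124. A peak within 1000 bp of a gene end was present in both libraries at 42 of the 47, against 65.9% of all genes. Covered bases were below 2/3 of the control at 5 of the 47, Arnt2, Siah2, Pfkl, Vegfa and Car12, a smaller share than the 16.7% of all genes, and above 3/2 at none. The largest numbers of unmatched control peaks were 10 of 20 at Vegfa, which encodes the angiogenic growth factor, and 8 of 16 at Arnt2, a relative of the HIF partner Arnt. Next came 4 each at Siah2, Pfkfb3, Eno1 and P4ha1. Arnt itself kept 3 of 3, Egln2, the gene of the hydroxylase PHD1, 2 of 2, and Epo 2 of 2. Genes with unmatched cKO peaks included Plod2, a collagen lysyl hydroxylase gene, with 2, and Hk1 and Vldlr with 1 each.

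Markers of the sorted cells were checked for a peak within 1000 bp of a gene end. Of 11 nephron lineage genes, 9 had one in both libraries, and Hnf4a and Cdh6 had none there in either. All 4 interstitial genes had one in both. Since 65.9% of all protein-coding genes had one in both, these counts say little about cell identity. Of 7 genes of other cells, 5 had one in the control and 4 in the cKO. The endothelial genes Pecam1, Cdh5 and Emcn had one in both, the macrophage gene Csf1r in the control and not in the cKO, and Ptprc and Hbb-bt in neither. Endothelial and interstitial cells also use Epas1, and the part of these cells in the results was not tested.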

How the data were processed

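Peaks were taken from the 2 deposited narrowPeak lists. Genrich, Trim Galore, SAMtools and the build mm10 are named by the submitters' processing notes. The aligner, settings, versions, duplicate handling and transposase shift were not given in the sources used here. Neither the authors' score per peak nor the deposited signal, an area under the caller's curve of at least 200 that is not scaled between libraries, was compared between lists. The deposited -log10 p and -log10 q depend on depth, and the p served only to rank peaks within a list, as percentiles and as 5 equal classes. Depth is unknown, since no read totals come with the peaks. The deposited -log10 q started at 1.42 (control) and 1.35 (cKO).

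Genes and promoter windows came from RefSeq (GRCm38.p6), coordinates are 1-based, and exons were not given. A peak counted as found with at least 1 bp of overlap. The same measures over all peaks or protein-coding genes stand as background. All 9 members are named, with the 3 other pathway genes with the most unmatched peaks per library, ties included; single values of a few listed genes are not reported here. The members and lists were chosen with earlier results of these data known. Alternatives were an overlap of 50% of both peaks, the more significant 50% of each list, equal list lengths, assignment within 50 kb, by nearest end only or by summit inside the gene, and, added after the data were seen, leaving out Egln3 or Slc2a1. Python 3.11.15, pandas 2.3.3 and scipy 1.17.1 were used. The overlap code was tested on the control list against a copy of it with known changes. The assignment code was checked against an exhaustive search on a sample of control peaks.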

Additional observations from a re-analysis of the deposited data

How the results depend on the processing

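Across the other settings, including those without Egln3 or Slc2a1, the share of control peaks found ranged from 66.7 to 85.0%, the ratio of covered bases from 0.72 to 0.86 and the median width ratio from 0.90 to 0.97. The share of control peaks found left its counting interval only with equal list lengths, at 85.0%, where the weakest control peaks are dropped by construction. The share of cKO peaks found moved from 97.5% to 85.0% when 50% of both peaks had to overlap (over all cKO peaks, from 94.1% to 88.4%), and to 100% both in the more significant 50% of each list (22 of 22) and without Egln3 (32 of 32), which both leave out the unmatched Egln3 peak; the cause of the move to 85.0% was not tested. Of the 70 values for single genes, 8 moved, all to 100% found, which the interval of an incomplete share always leaves out, and most on few peaks. They were Hif1a (3 of 3) and Egln1 (2 of 2) with equal lengths, Slc2a1 (4 of 4) in the more significant 50%, Egln3 (7 of 7) within 50 kb, and Hif1a (1 of 1), Egln1 (1 of 1), Egln3 (2 of 2) and Ndrg1 (3 of 3) inside the gene. Assignment by nearest end alone changed no value. No paired analysis was possible because each genotype had 1 library. Without replicates or read counts, loss of weak peaks and lower depth cannot be told apart.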
